A study of Rattus norvegicus with 24 samples.

Results

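The genes described here are 7 of the 13336 genes named on the array, chosen by their probes for a place in GABA signalling: Gad1, Abat, Aldh5a1, Slc6a13, Kctd8, Gabarap and Gabarapl2. Each was read by 1 probe of the 22517 on the array, and all 7 probes were among the 7043 that passed the detection filter (a detection p-value no higher than 0.0005 on 4 or more of the 24 arrays). Only Gad1, Abat, Aldh5a1 and Slc6a13 act in the synthesis, breakdown or transport of GABA. Kctd8 encodes a receptor-associated protein, and Gabarap and Gabarapl2 encode proteins of the autophagy machinery that are known for their link to GABA receptors.

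GABA is the main inhibitory transmitter of the spinal cord and brain. Glutamate decarboxylase makes it from glutamate, membrane transporters clear it, and GABA transaminase followed by succinic semialdehyde dehydrogenase feed its carbon into the citric acid cycle. Sensory neurons of the dorsal root ganglion (DRG) carry GABA-A and GABA-B receptors on their central terminals, where GABA produces presynaptic inhibition, while most of the GABA acting there comes from interneurons of the dorsal horn.

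RNA was measured in lumbar DRGs of Sprague-Dawley rats, 3 months old, in 6 groups of 4 rats with 1 array per rat: vincristine-morphine, vincristine-oxycodone, vincristine-saline, saline-morphine, saline-oxycodone and saline-saline. Vincristine, an anticancer drug that causes neuropathic pain, or saline was injected on 10 days, in cycles with a pause between them, and morphine, oxycodone or saline for 5 days after that treatment had ended. The saline-saline rats thus received injections of the same schedule without either drug, and both opioids were given at the same dose by weight. The ganglia were whole, so that neurons, satellite glia, Schwann cells, blood vessels and coverings contributed RNA together, and fewer cells of a type cannot be told apart from less RNA per cell.

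The arrays detected 6112 to 6907 probes each, with median signals of 48.6 to 72.8. Of 15 sensory neuron markers measured, 13 passed the filter. Of 13 central nervous system markers measured, Gfap alone passed, and Gad2, the second glutamate decarboxylase gene, was detected on 0 of 24 arrays. Genes of skeletal muscle, an unintended tissue, were high on 5 arrays (vincristine-morphine rats 1 and 3, vincristine-oxycodone rats 3 and 4 and saline-morphine rat 4), by 1.44 to 3.25 log2 units above the median array in the mean of 10 genes. All 7 detected red blood cell genes were higher in vincristine rats than in control rats (adjusted p-value under 0.05 in each, limma), and their mean lay at 10.48 to 11.83 in the vincristine arm and 8.41 to 9.70 in the control arm on the log2 scale. The part of muscle and blood in the members' values was not tested beyond the fits without the muscle-rich arrays. The signal table also fell into 4 runs of 6 neighbouring columns, called array sets here, each with 1 array of every group. The deviations of arrays from their group means correlated by 0.41 on average within a set, so each comparison was also fitted with the set as a block.

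The stretches before the start of 3 member genes are shown because they differ in the motifs they hold: Gad1, the only gene here for the synthesis of GABA, Kctd8, and Aldh5a1, the member with the most low p-values. They are the 250 bases upstream of the gene start in RefSeq (rat build GRCr8), written 5′ to 3′ on the strand of the gene, with motif matches in capitals.
Gad1 promoter, chr3:75777202-75777451, strand +: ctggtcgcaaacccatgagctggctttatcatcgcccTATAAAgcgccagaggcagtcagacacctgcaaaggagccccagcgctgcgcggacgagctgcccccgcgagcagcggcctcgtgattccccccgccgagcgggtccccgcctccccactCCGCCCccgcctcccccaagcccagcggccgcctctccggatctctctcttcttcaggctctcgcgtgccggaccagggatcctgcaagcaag
Kctd8 promoter, chr14:39126960-39127209, strand +: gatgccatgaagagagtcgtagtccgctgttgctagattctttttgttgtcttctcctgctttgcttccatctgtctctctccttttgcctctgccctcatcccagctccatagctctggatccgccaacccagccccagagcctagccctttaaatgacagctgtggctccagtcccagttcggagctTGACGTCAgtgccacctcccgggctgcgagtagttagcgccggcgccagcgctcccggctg
Aldh5a1 promoter, chr17:40560123-40560372, strand +: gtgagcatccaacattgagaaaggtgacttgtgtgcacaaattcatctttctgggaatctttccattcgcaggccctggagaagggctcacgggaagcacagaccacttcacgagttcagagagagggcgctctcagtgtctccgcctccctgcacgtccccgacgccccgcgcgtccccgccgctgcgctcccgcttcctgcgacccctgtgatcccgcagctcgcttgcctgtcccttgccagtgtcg
The motifs searched on both strands were the TATA box, spelled TATAAA, the cyclic AMP response element, spelled TGACGTCA, the CAAT box, spelled CCAAT, and the GC box, spelled GGGCGG. Gad1 held the letters of the TATA box 213 bases before the start and 1 GC box match. Kctd8 held the cyclic AMP response element 61 bases before the start. Aldh5a1 held none of the 4 motifs. These are matches of letters at any position, and whether they act as promoter elements was not tested. Among 33469 rat promoters of this length, 12.9% held the TATA box, 1.59% the cyclic AMP response element, 34% the CAAT box and 30.5% the GC box. Of the other members, Gabarapl2 held 3 GC boxes and Gabarap 1, while Slc6a13 and Abat had no promoter among the 33469.

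Across 12 comparisons and 7 members, none of the 84 member differences passed an adjusted p-value of 0.05 (limma, Benjamini-Hochberg over all 7043 probes). The lowest adjusted p-value was 0.9996, and 0.54 in the fit with array sets as a block. Unadjusted, 4 of the 84 differences had a p under 0.05, and 5 of 84 did so in the blocked fit. Over all probes and comparisons, 2.37% of differences passed that unadjusted threshold, and 6.3% in the blocked fit. The members' shares were 4.76% and 5.95%, in a set of 7 genes whose comparisons share arrays. Of 63 member comparisons of 4 against 4 rats, 2 (3.17%) had groups that did not overlap, against 1.23% of all probes over the same 9 comparisons.

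**Figure D1:**
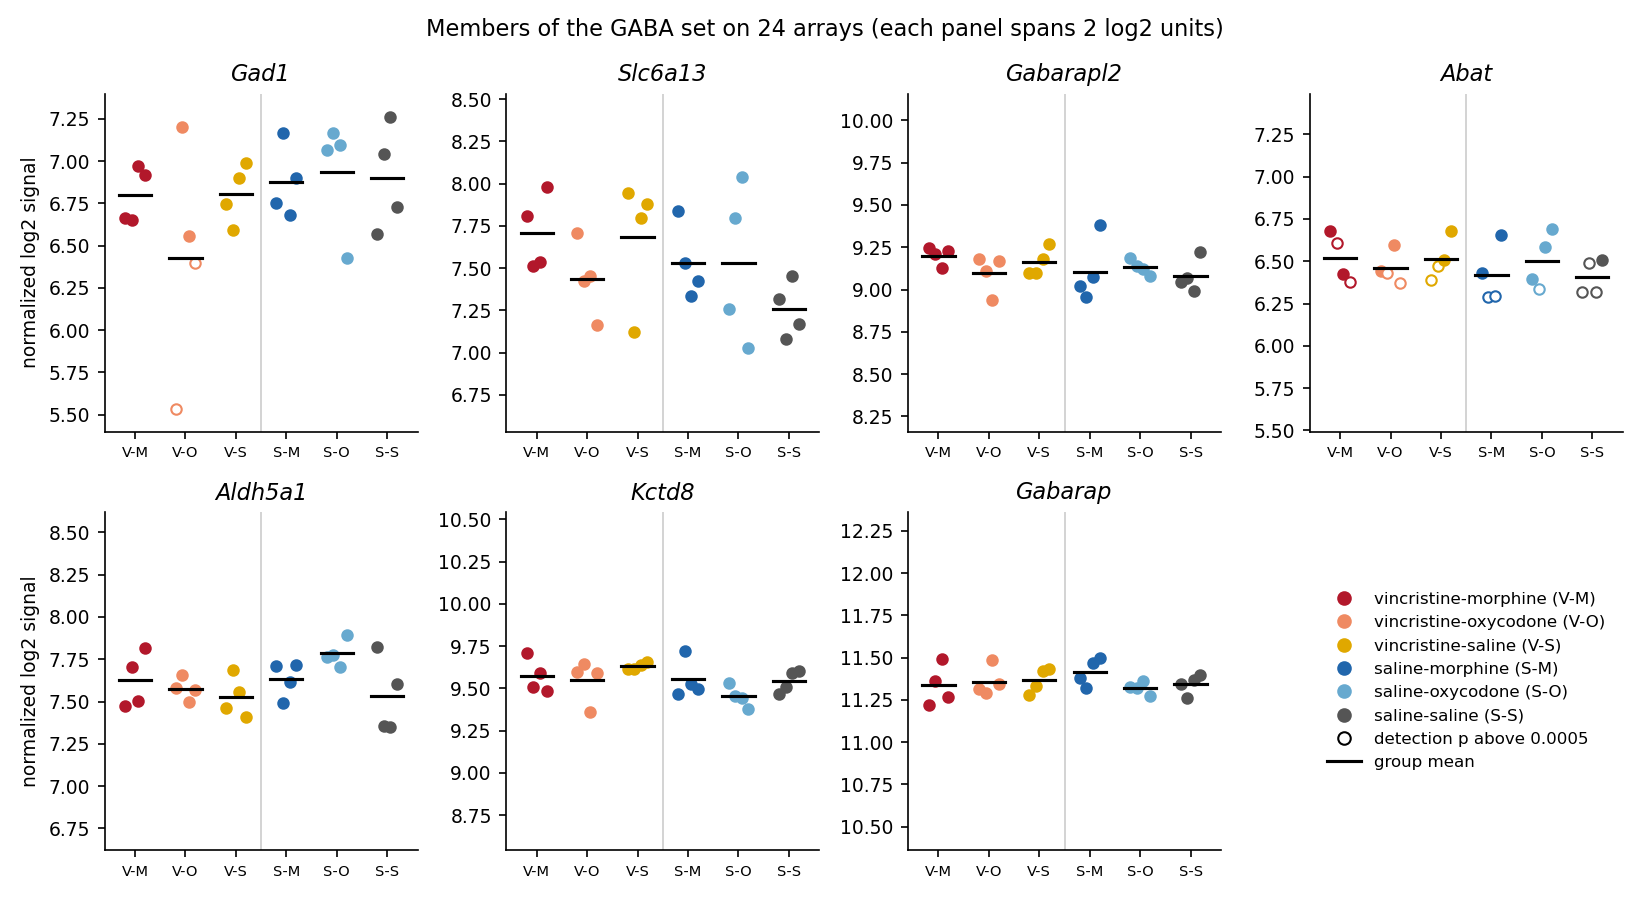
Normalized log2 signal of each member on every array (points) with the group mean (line), for the 6 groups of 4 rats; open points had a detection p-value above 0.0005, and every panel spans 2 log2 units. Gad1 and Slc6a13 scattered most within groups, with pooled SDs of 0.36 and 0.30, and Gabarap and Kctd8 least, with 0.08 and 0.09.

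Gad1, the glutamate decarboxylase, was detected on 22 of 24 arrays. It averaged 6.80 ± 0.17 in vincristine-morphine, 6.42 ± 0.69 in vincristine-oxycodone, 6.81 ± 0.18 in vincristine-saline, 6.88 ± 0.21 in saline-morphine, 6.94 ± 0.34 in saline-oxycodone and 6.90 ± 0.31 in saline-saline rats (log2 signal, SD, n = 4 each). The 5 other group means lay within 0.14 of each other, less than the SD of any group. The vincristine-oxycodone group alone stood lower, and its 4 rats read 5.54, 7.20, 6.56 and 6.40, against 7.06, 7.17, 7.09 and 6.43 in the saline-oxycodone rats. The groups overlapped, and vincristine-oxycodone rat 1, with a signal of 69.0 and a detection p-value of 0.00242, was the lowest of all 24 arrays. Vincristine-oxycodone rat 4, at 6.40, also missed the detection cutoff, with a detection p-value of 0.00121. Gad1 was thus detected on 2 of 4 arrays in this group and on 4 of 4 in every other group. Vincristine minus control in oxycodone rats was -0.51 (SE 0.24), with an unadjusted p of 0.046 in limma, 0.033 with the set as a block and an adjusted p of 1.00. Without vincristine-oxycodone rat 1 the difference was -0.22, with an unadjusted p of 0.29, and without vincristine-oxycodone rat 2 it was -0.77, with an unadjusted p of 0.0021. The two-sided exact permutation test over the 70 regroupings of the 8 arrays gave p = 0.34. In the fit without the block, 3.08% of all 7043 probes had an unadjusted p under 0.05 in this comparison. An adjusted p under 0.05 was found for 0.0142% (0.0426% in the blocked fit).

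Abat, the GABA transaminase, was close to background. Its probe had a detection p-value of at most 0.0005 on 12 of 24 arrays, and on 1 to 3 of the 4 arrays in every group. Its group means lay between 6.41 in saline-saline and 6.52 in vincristine-morphine rats, a range of 0.11 against a pooled SD of 0.14. None of its differences had an unadjusted p under 0.05, and the neighbouring group means did not differ beyond their spread.

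Aldh5a1, succinic semialdehyde dehydrogenase, which completes GABA breakdown, was detected on all arrays. It averaged 7.62 ± 0.16 in vincristine-morphine, 7.58 ± 0.06 in vincristine-oxycodone, 7.53 ± 0.12 in vincristine-saline, 7.63 ± 0.11 in saline-morphine, 7.78 ± 0.08 in saline-oxycodone and 7.53 ± 0.23 in saline-saline rats (SD, n = 4 each). The saline-oxycodone rats were the highest, at 7.76, 7.78, 7.71 and 7.89, while the vincristine-oxycodone rats read 7.58, 7.65, 7.50 and 7.57. The vincristine-oxycodone and saline-oxycodone groups did not overlap, which 1.69% of all probes showed in this comparison, and of the 7 members Aldh5a1 alone did. Vincristine minus control in oxycodone rats was -0.21 (SE 0.10), with an unadjusted p of 0.047 in limma and 0.022 with the set as a block, and an exact permutation p of 0.0286, the smallest that 4 against 4 can give. The adjusted p-value was 1.00, and 0.54 with the set as a block. With the 5 muscle-rich arrays left out, the difference was -0.17, with an unadjusted p of 0.19. With 1 of the 8 arrays left out in turn it lay between -0.24 and -0.17, and the unadjusted p was above 0.05 in 6 of 8 cases. Over all 37 alternatives the difference lay between -0.24 and -0.12, with unadjusted limma p-values of 0.022 to 0.49.

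In control rats, oxycodone minus saline for Aldh5a1 was 0.25 (SE 0.10), with an unadjusted p of 0.019, and 0.0073 with the set as a block. The saline-saline rats read 7.82, 7.36, 7.35 and 7.60, so saline-saline rat 1 lay within the saline-oxycodone range, and the groups overlapped. The exact permutation p was 0.11 and the adjusted p 1.00. In the fit without the block, 2.67% of all 7043 probes had an unadjusted p under 0.05 in this comparison and 0% an adjusted one. The blocked p of 0.0073 is to be read against the blocked share, which was 6.3% over all comparisons. Groups that did not overlap were found for 1.53% of all probes. The difference was 0.35 without saline-saline rat 1, but 0.19 without rat 2 or rat 3 of that group, with unadjusted p-values of 0.080 and 0.081. With arrays centred on their medians it was 0.16, with an unadjusted p of 0.36. That centring moved the median of all probes kept by -0.07 in this comparison. Over both arms, opioid minus saline was 0.12 (SE 0.06), with an unadjusted p of 0.055, or 0.026 with the set as a block, and an adjusted p of 0.64 with the set as a block. It was above 0 within 3 of 4 array sets. Its value without saline-saline rat 1 was 0.17, and 0.09 without saline-saline rat 2 or rat 3.

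Slc6a13, the GABA transporter GAT2, which in rodents is known mainly from the meninges, liver and kidney, was detected on all arrays. It averaged 7.71 ± 0.22 in vincristine-morphine, 7.44 ± 0.22 in vincristine-oxycodone, 7.68 ± 0.38 in vincristine-saline, 7.53 ± 0.22 in saline-morphine, 7.53 ± 0.47 in saline-oxycodone and 7.26 ± 0.16 in saline-saline rats (SD, n = 4 each). The vincristine-saline rats read 7.94, 7.12, 7.79 and 7.88, against 7.32, 7.08, 7.45 and 7.17 in the saline-saline rats. Vincristine-saline rat 2 lay inside the saline-saline range and the other 3 above it. The difference was 0.43 (SE 0.20), with an unadjusted p of 0.045 in limma, 0.044 with the set as a block, an exact permutation p of 0.11 and an adjusted p of 1.00. It was above 0 within 3 of 4 array sets and was 0.62 without vincristine-saline rat 2. Without vincristine-saline rats 1, 3 or 4 it was 0.34, 0.39 and 0.36, with unadjusted p-values of 0.13, 0.092 and 0.11, and over the 8 arrays left out in turn the unadjusted p was above 0.05 in 6. In the fit without the block, 1.77% of all probes had an unadjusted p under 0.05 in this comparison and 0.0284% an adjusted one. Slc6a13 also averaged above saline-saline rats in saline-morphine rats (by 0.27) and in saline-oxycodone rats (by 0.27). Its vincristine minus control difference was 0.18 in morphine rats and -0.09 in oxycodone rats.

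Genes of a meningeal list were read beside Slc6a13. Of 8 meningeal genes that passed the filter, 7 had a mean above that of saline-saline rats in vincristine-saline rats, with a median difference of 0.30, against a median over all probes of -0.00062. Against the same saline-saline rats, 7 of 8 were also higher in saline-morphine rats (median difference 0.25) and 7 of 8 in saline-oxycodone rats (0.19). For vincristine minus control, 4 of 8 were above 0 in morphine rats (median -0.007) and 4 of 8 in oxycodone rats (0.004). The genes named next were chosen after their values were seen, and their differences are vincristine minus control in saline rats. Igf2, a growth factor of the leptomeninges, had a difference of 0.65, with an exact permutation p of 0.0286, the smallest possible. Slc47a1, a transporter of organic cations, had a difference of 0.93, with an exact permutation p of 0.086. Ptgds, the prostaglandin D synthase that is abundant in the meninges, had a difference of 0.06, and Col15a1 one of -0.19. None of the 8 passed the adjusted threshold. The mean of the 8 genes lay at 9.38 to 9.86 in vincristine-saline and 9.23 to 9.38 in saline-saline rats. Over the 24 arrays the mean of the list and Slc6a13 had r = 0.82 (rho 0.79), 0.76 without the 2 arrays farthest from the median of the list and 0.77 to 0.92 within the 4 array sets; these arrays share groups, and the correlation is a description. Gene by gene, on set-centred arrays, r with Slc6a13 was 0.54 to 0.87 for 6 of the 8, but 0.09 for Ptgds and -0.34 for Col15a1. The part of the meninges in the level of Slc6a13 was not tested further. In the wider list, Slc22a8, Cldn11, Aldh1a2 and Tbx18 were measured and did not pass the filter.

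**Figure D2:**
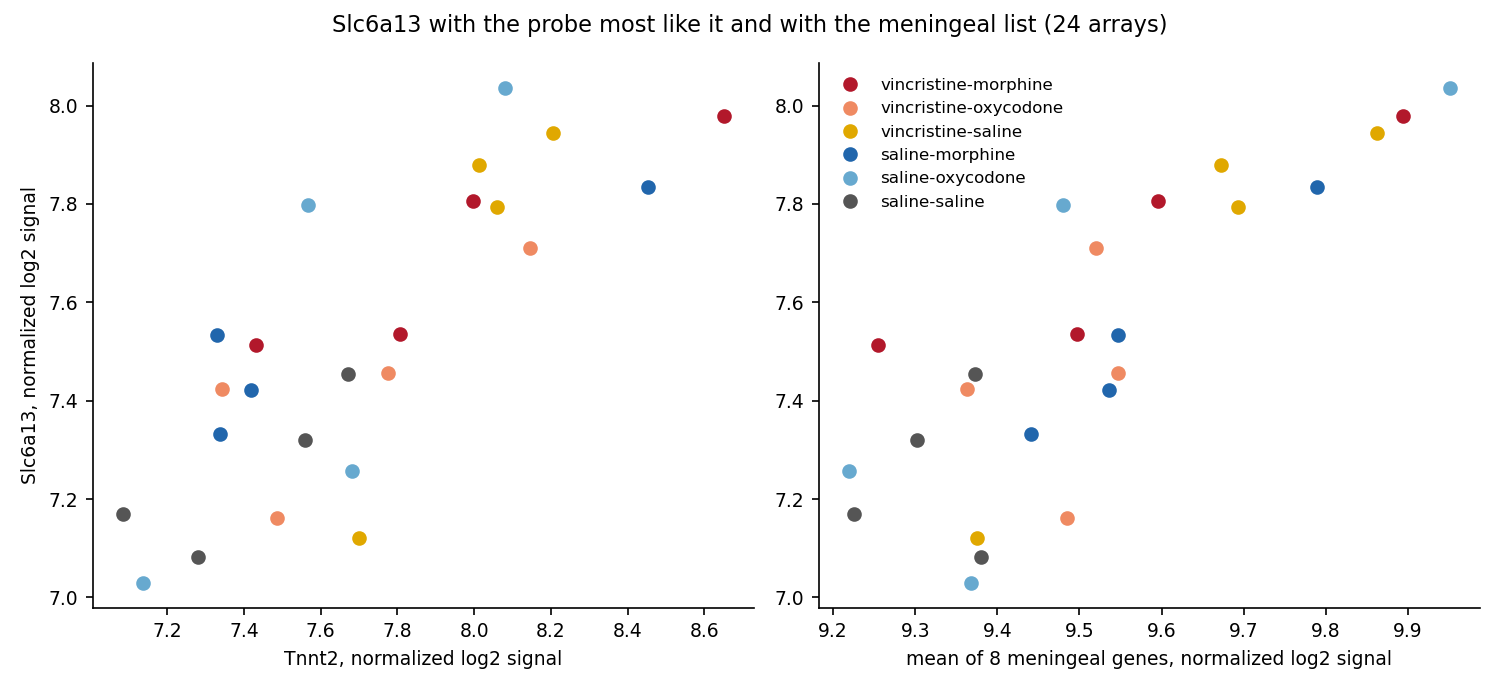
Slc6a13 on the 24 arrays (vertical axis, normalized log2 signal) against Tnnt2 (left) and the mean of 8 meningeal genes (right), with points coloured by group. Arrays higher in Slc6a13 tended to be higher in both, with r = 0.80 for Tnnt2 and 0.82 for the meningeal mean, not centred within array sets.

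The probes with patterns most like Slc6a13 over the 24 arrays, centred within array sets, were Tnnt2 (r = 0.89), Slc22a6 (0.87) and Efnb3 (0.86). Slc22a6, an organic anion transporter, belongs to the meningeal list. Tnnt2 and Efnb3 belong neither to that list nor to the skeletal muscle genes read here. For Aldh5a1 they were Prkar1a (0.80), Zfp428 (0.79) and Scamp1 (0.77), for Kctd8 Abcf3 (0.81), Rspry1 (0.78) and Herc4 (0.76), for Gabarapl2 Slc25a32 (0.73), Slc7a4 (0.68) and Stk16 (0.67), and for Gabarap Ptov1 (0.79), S100a16 (0.78) and Tlnrd1 (0.76). Not centred, r was 0.15 for Prkar1a and 0.12 for Scamp1 with Aldh5a1, and 0.30 for Ptov1 with Gabarap. For the other probes named it lay at 0.54 to 0.80. Each centred r was picked as one of the highest over all probes kept, and carries no test. Of these probes, Slc22a6 was detected on 6 of 24 arrays, Slc25a32 on 12 and Slc7a4 on 22, and the rest on all 24. Among the members themselves, 2 of 21 pairs had r over 0.3 and 1 was under -0.3. The highest was 0.40 for Gabarapl2 with Abat and the lowest -0.55 for Aldh5a1 with Kctd8.

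Kctd8, an auxiliary subunit of GABA-B receptors, was among the least variable members. It averaged 9.57 ± 0.10 in vincristine-morphine, 9.55 ± 0.13 in vincristine-oxycodone, 9.63 ± 0.02 in vincristine-saline, 9.55 ± 0.12 in saline-morphine, 9.45 ± 0.06 in saline-oxycodone and 9.54 ± 0.07 in saline-saline rats (SD, n = 4 each). The vincristine-saline rats read 9.61, 9.61, 9.64 and 9.66, all above the saline-saline rats at 9.47, 9.51, 9.59 and 9.60. The groups did not overlap, which 1.15% of all probes showed in this comparison and Kctd8 alone among the members. This difference of 0.09, named after its values were seen, had an exact permutation p of 0.0286, the smallest possible, while limma gave an unadjusted p of 0.23 (SE 0.07). Over the 3 drug groups Kctd8 had the smallest p of the members for vincristine minus control, at 0.07 (SE 0.04, unadjusted p = 0.12, or 0.084 with the set as a block).

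Gabarap and Gabarapl2 are Atg8-family proteins, which join autophagosomes and, in the case of Gabarap, bind the GABA-A receptor. Gabarap varied least of the members, with group means between 11.32 and 11.42 and a range of 0.10, close to its pooled SD of 0.08. Array sets held 50.3% of its variance, and 44.4% in the median probe. Gabarapl2 lay between 9.08 in saline-saline and 9.20 in vincristine-morphine rats, a range of 0.12 against a pooled SD of 0.11. Neither had an unadjusted p under 0.05 in any of the 12 comparisons. Gabarap had the smallest p of the members for vincristine minus control in morphine rats, at -0.08 (SE 0.07, unadjusted p = 0.24).

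For vincristine minus control over the 3 drug groups, 0 of 7 members passed the adjusted threshold, and 0.199% of all probes did (0 of 7 and 0.596% in the blocked fit). Unadjusted, 0 of 7 had p under 0.05 and 2.77% of all probes did. The members' differences lay between -0.23 for Gad1 and 0.17 for Slc6a13, with a median of 0.05, and 4 of 7 were above 0. The largest size that the 95% intervals allow was 0.52 for Gad1, 0.41 for Slc6a13 and 0.09 for Gabarap. For opioid minus saline over both arms, 0 of 7 passed, against 0.114% of all probes (0 of 7 and 0.312% in the blocked fit). Without the block, 0 of 7 had an unadjusted p under 0.05, against 2.9% of all probes. With the block it was 1 of 7, Aldh5a1, and the blocked share over all comparisons was 6.3%.

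**Figure D3:**
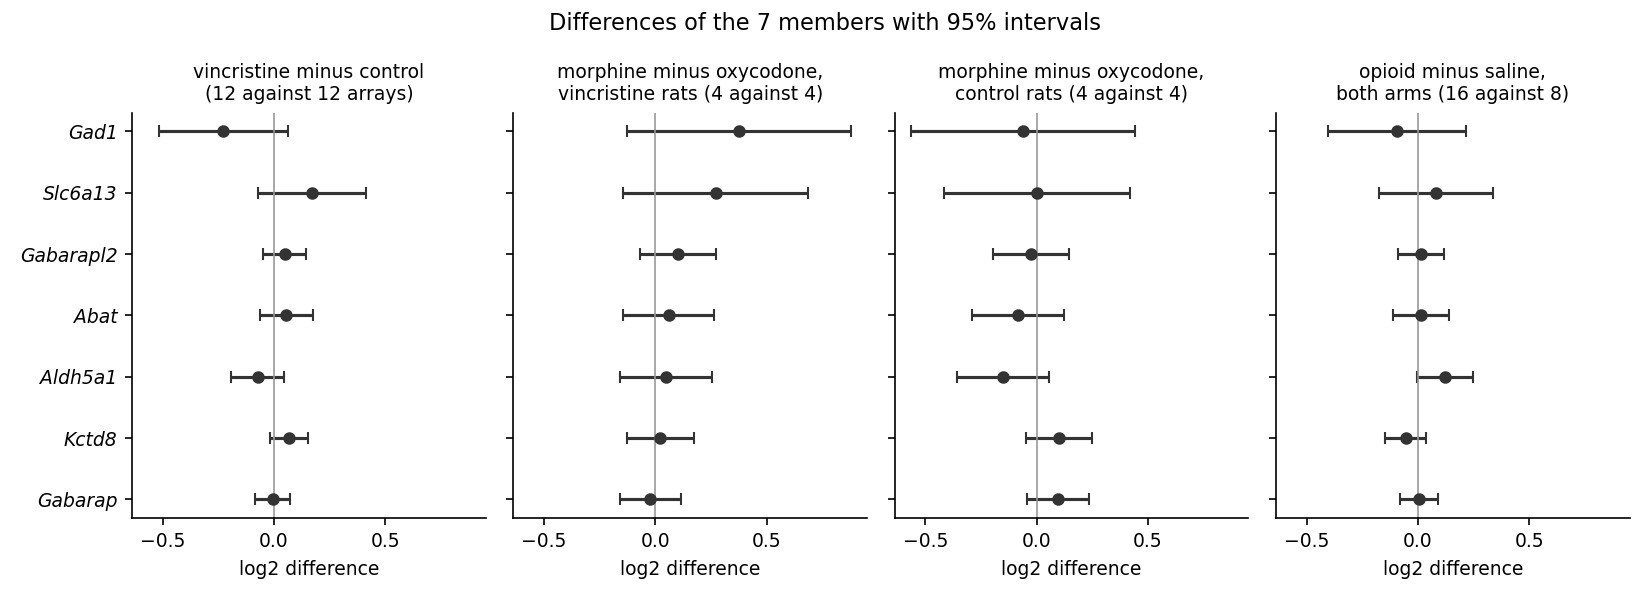
Log2 differences of the 7 members (points) with 95% intervals from limma (bars) in 4 comparisons, each with the number of arrays on either side. Every interval includes 0, and the intervals of Gad1 and Slc6a13 are the widest.

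Morphine and oxycodone share a morphinan skeleton. Oxycodone carries a methoxy group where morphine has a phenol, a ketone where morphine has an alcohol, and a further hydroxyl group. The rats received both at the same dose by weight. In vincristine rats, 0 of 7 members differed past the adjusted threshold, against 0% of all probes, and 0 of 7 had an unadjusted p under 0.05, against 0.753%. The groups of 0 members were free of overlap, against 0.625% of all probes. Morphine minus oxycodone there was 0.38 for Gad1 (SE 0.24, 95% interval -0.13 to 0.88), the smallest p of the members at 0.13, and 0.27 for Slc6a13 (-0.15 to 0.69). It was 0.10 for Gabarapl2 (-0.07 to 0.27), 0.06 for Abat (-0.15 to 0.27), 0.05 for Aldh5a1 (-0.16 to 0.26), 0.02 for Kctd8 (-0.13 to 0.17) and -0.02 for Gabarap (-0.16 to 0.12). For Gad1 the value was 0.08 without vincristine-oxycodone rat 1, and 0.64 without vincristine-oxycodone rat 2, with an unadjusted p of 0.0088 and an adjusted p of 1.00. The methods' test on detected spots alone, with the authors' log2 values, gave -0.07 for Gad1. It compared 4 vincristine-morphine arrays with 2 vincristine-oxycodone arrays, since vincristine-oxycodone rats 1 and 4, the lowest of that group, were not detected. The intervals allow a difference of up to 1.84-fold for Gad1 and 1.61-fold for Slc6a13, and of no more than 1.12-fold for Gabarap and 1.13-fold for Kctd8.

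In control rats, 0 of 7 members passed the adjusted threshold, against 0% of all probes, and 0 of 7 had an unadjusted p under 0.05, against 3.81%. The groups of 0 members were free of overlap, against 1.58%. Morphine minus oxycodone was -0.15 for Aldh5a1 (SE 0.10, 95% interval -0.36 to 0.05), the smallest p of the members at 0.14, and 0.10 for Kctd8 (-0.05 to 0.25) and 0.10 for Gabarap (-0.04 to 0.23). It was -0.08 for Abat (-0.29 to 0.12), -0.06 for Gad1 (-0.57 to 0.44), -0.03 for Gabarapl2 (-0.20 to 0.14) and 0.00 for Slc6a13 (-0.42 to 0.42). The largest differences the intervals allow were 1.48-fold for Gad1 and 1.34-fold for Slc6a13. The interaction, the morphine minus oxycodone difference in vincristine rats minus that in control rats, passed the adjusted threshold in 0 of 7 members, against 0% of all probes, and an unadjusted p of 0.05 in 0 of 7, against 2.98%. Its smallest p was 0.17 for Aldh5a1, at 0.20 (SE 0.14).

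In the remaining comparisons of 4 against 4 rats, 0 of 7 members passed the adjusted or the unadjusted threshold, and 0 of 7 had groups free of overlap. For vincristine minus control in morphine rats, 2.2% of all probes had an unadjusted p under 0.05 and 0.071% an adjusted one, and 1.28% had groups free of overlap. For morphine minus saline in vincristine rats these shares were 1.82%, 0% and 1.04%, and the smallest p of the members was 0.34 for Aldh5a1, at 0.10 (SE 0.10). For oxycodone minus saline in vincristine rats they were 1.65%, 0% and 0.909%, with the smallest p of 0.13 for Gad1, at -0.38 (SE 0.24), which was -0.09 without vincristine-oxycodone rat 1 and -0.64 without rat 2 of that group. For morphine minus saline in control rats they were 2.09%, 0% and 1.24%, with the smallest p of 0.19 for Slc6a13, at 0.27 (SE 0.20). Whether the effect of vincristine differed between oxycodone and saline rats was not tested.

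Of the other 37 genes of GABA metabolism, transport, autophagy conjugation, GABA-A receptor traffic and the GABA-B receptor complex that passed the filter, 0 passed the adjusted threshold in any comparison. For vincristine minus control over the 3 drug groups, 2 of 37 had an unadjusted p under 0.05, both with differences below 0. Over all probes 2.77% had such a p, and 120 of those 195 probes had differences below 0. For opioid minus saline it was 2 of 37, against 2.9% of all probes, and for morphine minus oxycodone in control rats and the interaction 1 of 37 each, against 3.81% and 2.98%. Genes past this unadjusted threshold are named here by the rule and were not shown to stand out from the rest of the array. Aldh1a1, an aldehyde dehydrogenase that makes GABA from putrescine in some neurons, had a difference of -0.22 (SE 0.07, unadjusted p = 0.0033, adjusted p = 0.57). It averaged 10.11 ± 0.09 in vincristine-morphine, 10.13 ± 0.33 in vincristine-oxycodone and 10.23 ± 0.09 in vincristine-saline rats, and 10.36 ± 0.13 in saline-morphine, 10.23 ± 0.07 in saline-oxycodone and 10.54 ± 0.12 in saline-saline rats (SD, n = 4 each). Akr7a2, which reduces succinic semialdehyde, had a difference of -0.13 (SE 0.06, unadjusted p = 0.045). For opioid minus saline, Aldh1a1 was at -0.18 (SE 0.07, unadjusted p of 0.019 in limma). Ubqln1, which stabilizes GABA-A receptors, was at 0.11 (SE 0.04), with an adjusted p of 1.00 in limma and 0.12 in the blocked fit. Slc6a8, the creatine transporter, had a morphine minus oxycodone difference of -0.23 in control rats (SE 0.07), with an exact permutation p of 0.0286, the smallest possible. Its interaction was 0.32 (SE 0.10). None of the 6 differences named for these 4 genes passed the adjusted threshold. The lists were read with earlier results of these data known.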

How the data were processed

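RNA from lumbar dorsal root ganglia of 24 rats was hybridised by the authors to Illumina RatRef-12 arrays, with 1 array per rat. The deposited signal table holds the intensity of 22517 probes per array, neither background-corrected nor normalized, together with a detection p-value for each probe that the authors deposited beside it. A further deposited table holds log2 values, which differed from quantile-normalized log2 signals of the same arrays by at most 0.00143. Its log2 values were used as an alternative. The authors' methods left out spots with a detection p-value above 0.0005 and used a variance analysis of both treatments and t-tests between morphine and oxycodone, without adjustment. Software versions upstream are not given in the sources used here.

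Signals were background-corrected, quantile-normalized and put on the log2 scale with neqc (limma 3.58.1, R 4.3.3). Kept for testing were 7043 probes, whose detection p-value was no higher than 0.0005 on 4 or more of the 24 arrays. The detection p-values move in steps of 1 in 825. A model of 6 group means over the 24 arrays was fitted by lmFit and moderated by eBayes (18 residual degrees of freedom, or 15 with the array set as a block). Adjusted p-values are Benjamini-Hochberg values over the probes kept within a comparison, with a threshold of 0.05. Single comparisons of 4 against 4 arrays also had a two-sided exact permutation test. The number of arrays limits the precision of every value. The fit of vincristine minus control, with and without the block, was tested on simulated data. Probes were named through the platform annotation, with symbols updated in RefSeq by gene identifier: 13787 probes had 1 gene, 8730 had none and 0 had several.

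The members, lists and rules were chosen with earlier results of these data known. By the rule for named genes, all 7 members were given. A member difference was given with its error where its unadjusted p was under 0.05 with or without the set as a block, where it was the smallest of the 7, or for morphine minus oxycodone. Other genes of the GABA lists were named where their unadjusted p was under 0.05 in a main comparison. The alternatives were no background correction, median centring, the authors' values, 3 other detection filters, only the arrays compared, another variance model, array weights, blocks, the methods' t-test, the muscle-rich arrays left out, and each array left out in turn.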

Additional observations from a re-analysis of the deposited data

Results flagged for a closer look

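Gad1 in the saline-oxycodone rats had 1 sample far from the other 3. Saline-oxycodone rat 4 read 6.43 on the log2 scale, while the others lay between 7.06 and 7.17, and its gap to the nearest was 0.858 of the range of the group, above Dixon's critical value for 4 samples. Of 42 groups of 4 tested in this way (7 members in 6 groups), 1 was flagged, and chance flags about 1 in 20. Without this rat, vincristine minus control in oxycodone rats was -0.68 for Gad1, with an unadjusted limma p of 0.012 and an adjusted p of 1.00.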

How the results depend on the processing

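The count of members past the adjusted threshold was 0 in every comparison under every alternative that gave a value. Of 25 member differences carried through the alternatives, 931 values were obtained, and 903 kept their sign and stayed on the same side of the adjusted threshold. The other 28 changed sign, and in none of those was the unadjusted p under 0.05 before or after. Many of the 903 could not have changed sign. Leaving out an array of a group that is not compared leaves the difference as it was. For Aldh5a1, oxycodone minus saline in control rats stayed at 0.25 in all such cases. It also stayed there under the other detection filters and with the array set or the replicate number as a block. The count of 903 is therefore no measure of how stable the differences are. Aldh5a1 and Slc6a13 kept their sign under all alternatives for the differences with a low unadjusted p: 0.16 to 0.35 for oxycodone minus saline in control rats (Aldh5a1), -0.24 to -0.12 for vincristine minus control in oxycodone rats (Aldh5a1) and 0.34 to 0.62 for vincristine minus control in saline rats (Slc6a13). Gad1 lay between -0.77 and -0.22 for vincristine minus control in oxycodone rats, with the smallest value without vincristine-oxycodone rat 1 and the largest without vincristine-oxycodone rat 2. Centring arrays on their median moved the median of all probes kept by 0.19 for morphine minus oxycodone in control rats. The shift was -0.19 for the interaction, -0.11 for vincristine minus control in morphine rats and 0.12 for morphine minus saline in control rats. It was -0.07 for oxycodone minus saline in control rats and 0.08 for vincristine minus control in oxycodone rats. The members' differences in these comparisons are to be read against those shifts. The filter on all 24 arrays left out Gad1 and Abat, so their values are missing there, and a fit of only the arrays compared was not possible where a comparison uses all 24. Over all probes, the count past the adjusted threshold was 14 for vincristine minus control over the 3 drug groups and 42 with the array set as a block (6 to 42 over the alternatives), and 8 and 22 for opioid minus saline (1 to 22). In vincristine minus control it ranged over 1 to 7 in saline rats (2 in the fit without a block), 1 to 12 in morphine rats (5) and 0 to 5 in oxycodone rats (1).

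The replicate numbers in the sample descriptions (1 to 4) did not pair the samples: deviations of same-numbered arrays from their group means correlated by 0.045 on average, and 30 of 60 pairs were over 0.1, against 53 of 60 for array sets. With the replicate number as a block, 0 members passed the adjusted threshold in any comparison, and Gad1 in vincristine minus control in oxycodone rats was at -0.51. The numbers that end the sample titles are not the same ones and did not pair the samples either, with a mean correlation of 0.0098 and 11 of 32 pairs over 0.1. With them as a replicate block, Gad1 was at -0.65 in that comparison (unadjusted p of 0.017) and at -0.57 for oxycodone minus saline in vincristine rats (0.032), and Slc6a13 at 0.61 for vincristine minus control in saline rats (0.020), with 0 members past the adjusted threshold. Leaving out each array in turn gave 0 members past the threshold in every comparison (lowest 0, highest 0). Abat is limited by its low signal, since its probe was at or under the detection p-value of 0.0005 on 12 of 24 arrays.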

Other observations

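Gad1 was not detected on all arrays, so its likeness to other probes was outside the rule and is given here after its values were seen. Over the 24 set-centred arrays the probes most like it were Slco1c1 (r = 0.76), Tec (0.73) and Tlr2 (0.73). Without vincristine-oxycodone rat 1 these were 0.56, 0.52 and 0.46. Tlr2 was detected on 12 of the 24 arrays.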
